A study of Danio rerio with 6 samples.

Results

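The genes described here encode the machinery of melanin pigment cells, and they were followed in RNA of cells sorted by fluorescence from the heads of larval zebrafish. They are 9 named genes: tyr, tyrp1, dct, pmela, slc45a2, slc24a5, oca2, mitfa and sox10. Matched by symbol, they gave 11 of the 32469 gene rows of the deposited count files, because the symbols TYRP1 and MITF each stand for a pair of rows. The names available here do not say which TYRP1 row is tyrp1a or tyrp1b, or which MITF row is mitfa or mitfb, so these rows are told apart by identifier. The 3 gallein samples came from OMP-Gal4;UAS-GCaMP1.6 larvae kept in 100 µM gallein, a compound that blocks G protein beta-gamma signalling. The 3 control samples came from the same transgenic line kept in the solvent DMSO. In either group treatment started at 16 to 20 hours post fertilization, medium was renewed every 24 hours, and heads were taken at 5 days post fertilization. The transgene uses the promoter of OMP, which is active in mature olfactory neurons, to express a fluorescent calcium sensor through Gal4. The sorted cells were labelled olfactory sensory neurons, not pigment cells.

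Melanin is made in melanosomes, organelles in which tyrosine is oxidised and polymerised on a protein scaffold. Larval zebrafish have it in melanophores, which arise from the neural crest and lie in the skin, and in the retinal pigment epithelium behind the photoreceptors. In zebrafish, sox10 and mitfa are known to be needed for melanophores, while the retinal pigment epithelium still makes melanin without mitfa. No sequence of these genes was used here.

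The sorted cells carried melanin gene transcripts in all 6 samples, and under TMM scaling most of them were highest in gallein replicate 2. Of the 9 member rows with enough counts for a test, 8 had their highest level in that sample (22.3% of all 18271 genes tested did). Scaled by library size only, 6 were highest there. Scaled by spike-in RNA, 2 were highest there and 7 in control replicate 2. None passed the edgeR threshold (adjusted p of 0.05, Benjamini-Hochberg over all genes tested) in either direction. Among all genes tested, 0% passed as higher and 0% as lower. The gallein and control samples overlapped for every one of the 9, where all gallein samples lay above all controls for 3.81% of all genes tested and below them for 5.22%. In bulk samples such as these, levels are relative to the other counts of a library. More pigment cells, more RNA per pigment cell and a change in the other RNA cannot be told apart.

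Gallein replicate 2 stood apart from the other libraries in ways that touch these results. Transcripts of the mitochondrial genome took 8.86% of its gene counts and 31.7% to 40.5% in the other 5. Counts of spike-in RNA equalled 10.1% of its gene counts and 2.29% to 8.86% in the other 5, lowest in control replicate 2. Its TMM factor was the lowest, at 0.640, and that of control replicate 2 the highest, at 1.45. Alignments that were not unique took 22.3% of its total and 9.55% to 16.1% in the other 5. It held 4 counts of OMP, the gene behind the sort, while gallein replicates 1 and 3 held 126 and 184 and the controls 531, 407 and 339. Gene counts per library ranged from 30822664 to 40295728. Levels are given below as CPM (counts per 1000000, TMM-scaled) in gallein replicates 1 to 3, then in control replicates 1 to 3. They are not corrected for transcript length, so levels are compared between samples and not between genes.

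Under TMM scaling the melanin enzymes stood higher in gallein replicate 2 than in the other samples, TYR by the smallest step. With spike-in scaling, of these rows only TYRP1 (ENSDARG00000029204) was highest there. The other TYRP1 row, DCT and TYR were then highest in control replicate 2, DCT at 278 against 187 in gallein replicate 2. TYRP1 encodes a tyrosinase-related protein that stabilises tyrosinase and takes part in late steps of melanin synthesis. Its row ENSDARG00000029204 was at 9.17, 20418 and 12.8 CPM in gallein, against 25.0, 28.9 and 10.4 CPM in controls. Gallein replicate 2 was 705-fold above the next highest sample, a control, and gallein replicates 1 and 3 lay within or below the control range. This one row held 423847 counts there, 1.30% of all gene counts of the library, and rank 11 among all gene rows by count. In the other 5 libraries its rank was between 2209 and 6327. Whether uneven amplification or counting of reads has a part in this count was not tested, and the reads were not used here. Its log2 fold change of gallein over control was 8.31 ± 2.75 (SE, edgeR adjusted p = 0.756), and without gallein replicate 2 it was -0.96 (adjusted p = 0.861).

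The other TYRP1 row, ENSDARG00000056151, was at 33.1, 761 and 30.6 CPM in gallein, against 41.9, 113 and 165 CPM in controls. Gallein replicate 2 was again the highest sample, while gallein replicates 1 and 3 were below every control. This row's log2 fold change was 1.37 ± 1.27 (SE, edgeR adjusted p = 0.872) with all samples and -1.74 (adjusted p = 0.741) without gallein replicate 2. Within gallein replicate 2 there were 26.8 counts of ENSDARG00000029204 per count of ENSDARG00000056151, and in gallein replicates 1 and 3 there were 0.277 and 0.419. The controls had 0.598, 0.256 and 0.0633, so the pair of TYRP1 rows stood apart from the other samples by very different amounts. Reads that fit both rows cannot be assigned with certainty where their sequences are alike.

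DCT (ENSDARG00000006008) encodes dopachrome tautomerase, which converts an intermediate of the melanin pathway. It was at 30.3, 546 and 25.0 CPM in gallein, against 37.4, 81.0 and 32.9 CPM in controls. The same single sample stood out, and gallein replicates 1 and 3 were below all controls. This row's log2 fold change was 1.99 ± 1.21 (SE, edgeR adjusted p = 0.793), and -0.86 (adjusted p = 0.889) without gallein replicate 2.

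TYR (ENSDARG00000039077) encodes tyrosinase, the rate-limiting enzyme of melanin synthesis. It was at 4.64, 28.4 and 3.53 CPM in gallein, against 9.27, 8.99 and 1.66 CPM in controls. Gallein replicate 2 was 3.06-fold above the next sample, a smaller step than for the other enzymes. The controls themselves differed 5.58-fold between lowest and highest. For TYR the log2 fold change was 0.87 ± 0.99 (SE, edgeR adjusted p = 0.907), and -0.70 (adjusted p = 0.941) without gallein replicate 2.

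**Figure D1:**
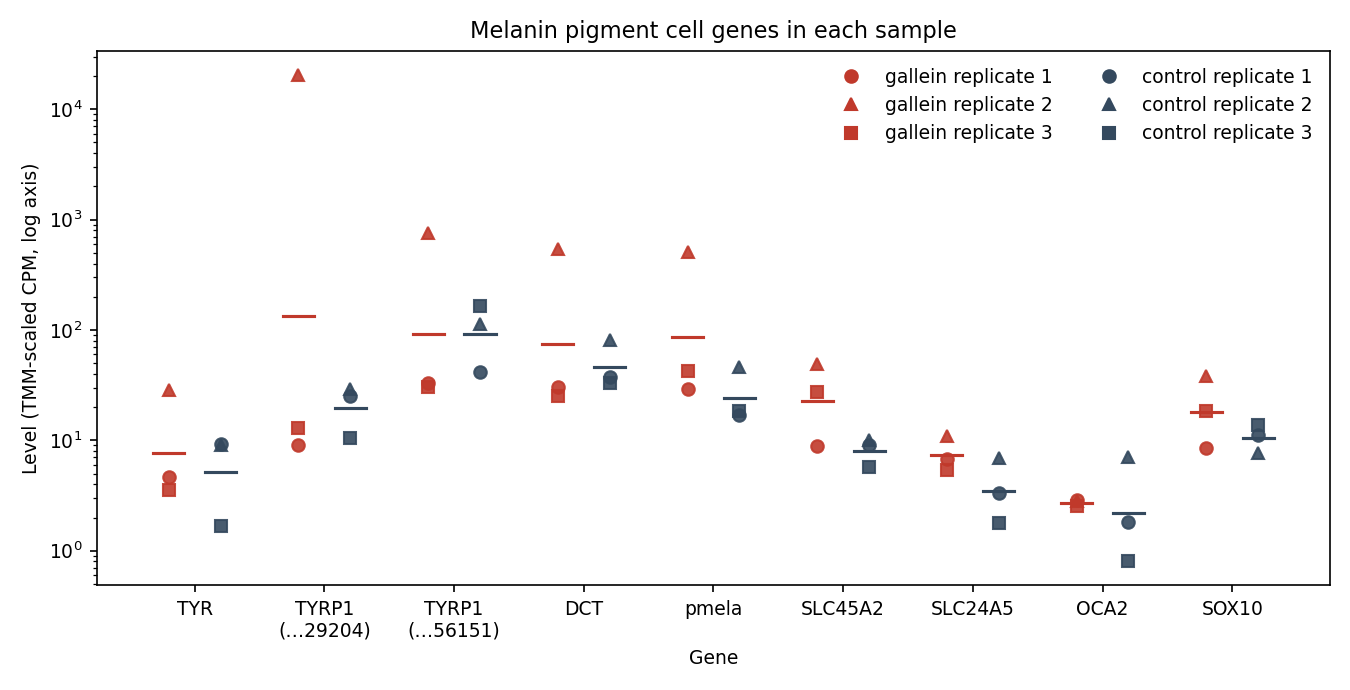
Levels of the 9 tested melanin gene rows in each sample, as TMM-scaled CPM on a log axis, with gallein in red on the left and control in dark blue on the right of each gene. Symbols mark replicate numbers and short bars the geometric mean of 3 samples. The red triangle, gallein replicate 2, is the highest point for all genes except OCA2, and reaches 20418 CPM for TYRP1 (ENSDARG00000029204).

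Under TMM scaling the melanosome scaffold gene, like the enzymes, was highest in gallein replicate 2. In gallein replicates 1 and 3 it differed from DCT and TYRP1 (ENSDARG00000056151), which lay below every control there. TYR, like the scaffold gene, lay inside the control range in those samples. The gene pmela (ENSDARG00000091298) encodes the protein that forms the fibrils on which melanin is laid down. It was at 29.1, 505 and 42.7 CPM in gallein, against 16.9, 46.6 and 18.5 CPM in controls. Gallein replicates 1 and 3 lay inside the control range, above control replicates 1 and 3 and below control replicate 2. For pmela the log2 fold change was 2.81 ± 1.19 (SE, edgeR adjusted p = 0.756), and 0.40 (adjusted p = 0.966) without gallein replicate 2.

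Under TMM scaling, 2 of the 3 melanosome transporter genes, SLC45A2 and SLC24A5, were highest in gallein replicate 2, and OCA2 was not. The steps were smaller than those of the enzymes. Scaled by library size only, SLC45A2 was highest in gallein replicate 3 and SLC24A5 in control replicate 2. With spike-in scaling both were highest in control replicate 2. SLC45A2 (ENSDARG00000002593), the gene of the zebrafish albino mutant, encodes a membrane transporter that affects melanosome pH. It was at 8.98, 48.9 and 27.2 CPM in gallein, against 9.02, 10.1 and 5.79 CPM in controls. Gallein replicates 2 and 3 were above all controls and gallein replicate 1 was among them. The log2 fold change was 1.77 ± 0.78 (SE, edgeR adjusted p = 0.761), and 1.13 (adjusted p = 0.831) without gallein replicate 2.

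SLC24A5 (ENSDARG00000024771), the gene of the golden mutant, encodes a cation exchanger of pigment cells. It was at 6.77, 11.0 and 5.35 CPM in gallein, against 3.35, 6.88 and 1.80 CPM in controls. Only gallein replicate 2 exceeded control replicate 2, by a factor of 1.603. Its log2 fold change was 0.94 ± 0.81 (SE, edgeR adjusted p = 0.860).

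OCA2 (ENSDARG00000061303) encodes a melanosomal anion channel. It was at 2.85, 2.79 and 2.55 CPM in gallein, against 1.84, 7.04 and 0.807 CPM in controls. The gallein samples were nearly alike and all lay inside the control range, and the highest sample was control replicate 2. It was the 1 tested row with a negative value, at -0.24 ± 0.99 (SE, edgeR adjusted p = 0.984). Without control replicate 2 the value was 1.04.

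Of the transcription factor genes, MITF had few counts, and SOX10 had 225 to 798 counts in a library. The protein made from mitfa switches on melanin genes in melanophores. The MITF row ENSDARG00000003732 had 3, 10 and 2 counts in gallein, against 4, 10 and 0 counts in controls. The MITF row ENSDARG00000037833 had 0, 0 and 14 counts in gallein, against 1, 9 and 0 counts in controls. Neither passed the filter on low counts, so neither was tested in the main fit and no fold change is given. A count of 0 allows up to 3 counts, which is between 0.0692 and 0.145 CPM in the libraries concerned, counting error only. In gallein replicate 2 the MITF rows held 10 and 0 counts. Under TMM scaling the 10 counts of ENSDARG00000003732 there were 0.482 CPM, the highest level of that row. Its 10 counts in control replicate 2 were 0.171 CPM. Counts this low do not settle the order of the samples.

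SOX10 (ENSDARG00000077467) encodes a neural crest transcription factor that is also active in glia and in the ear. It was at 8.56, 38.4 and 18.5 CPM in gallein, against 11.3, 7.69 and 13.8 CPM in controls. Under TMM scaling gallein replicates 2 and 3 were above all controls and gallein replicate 1 was among them, as for SLC45A2. The log2 fold change was 1.00 ± 0.74 (SE, edgeR adjusted p = 0.832), and 0.31 (adjusted p = 0.976) without gallein replicate 2. With spike-in scaling SOX10 was highest in control replicate 2, at 26.4, and gallein replicate 2, at 13.2, was below every control.

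**Figure D2:**
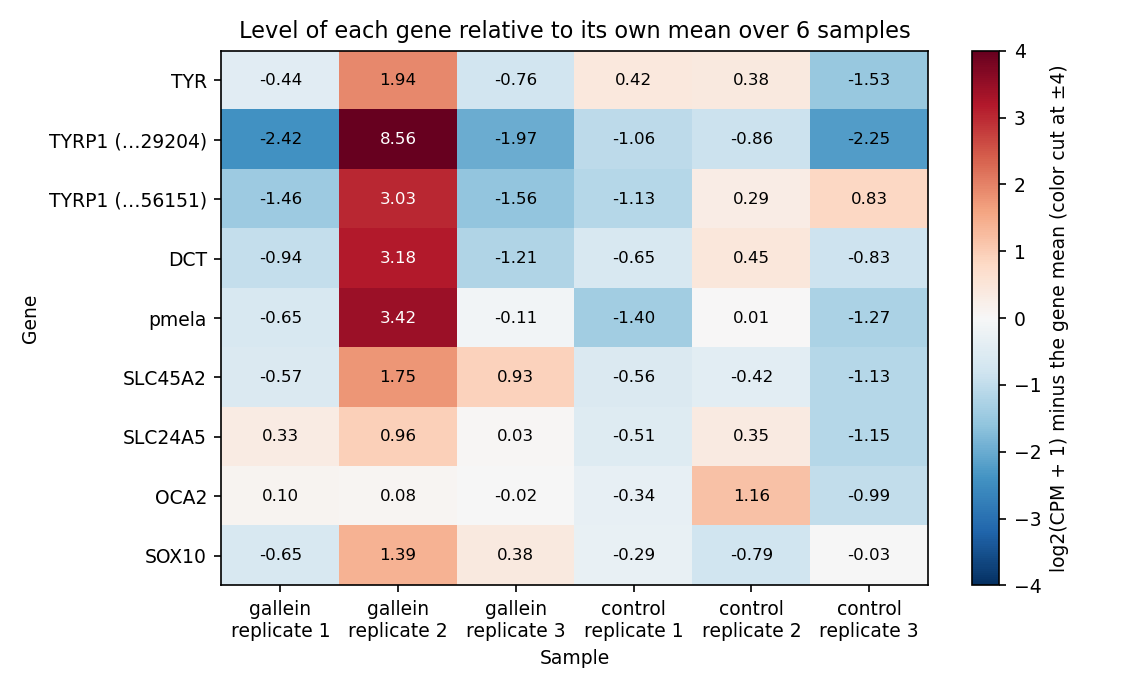
Level of each tested melanin gene in each sample relative to the gene's own mean, in log2(CPM + 1), with genes down the page and samples across. The column of gallein replicate 2 is red from TYR to SLC45A2, with 8.56 for TYRP1 (ENSDARG00000029204), and nearly white for OCA2, at 0.080.

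Over the 9 tested rows, 8 log2 fold changes were above 0 and 1 below, with a median of 1.37, beside a median of 0.070 over all genes tested, of which 52.7% were above 0. With spike-in scaling the median of all genes was -1.67. Under that scaling 2 of the 9 rows were above 0, and 8 of the 9 lay above the median of all genes. Without gallein replicate 2, 4 rows were above 0 and 5 below, with a median of -0.25 beside -0.043 for all genes. An unadjusted edgeR p under 0.05 was found for 3 rows, TYRP1 (ENSDARG00000029204), pmela and SLC45A2, where 6.5% of all genes had one. The DESeq2 Wald test gave no p-value for TYRP1 (ENSDARG00000029204), DCT and pmela, so these were not tested by it. Of the other rows it called none, beside 0.313% of genes called higher and 0.226% called lower.

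**Figure D3:**
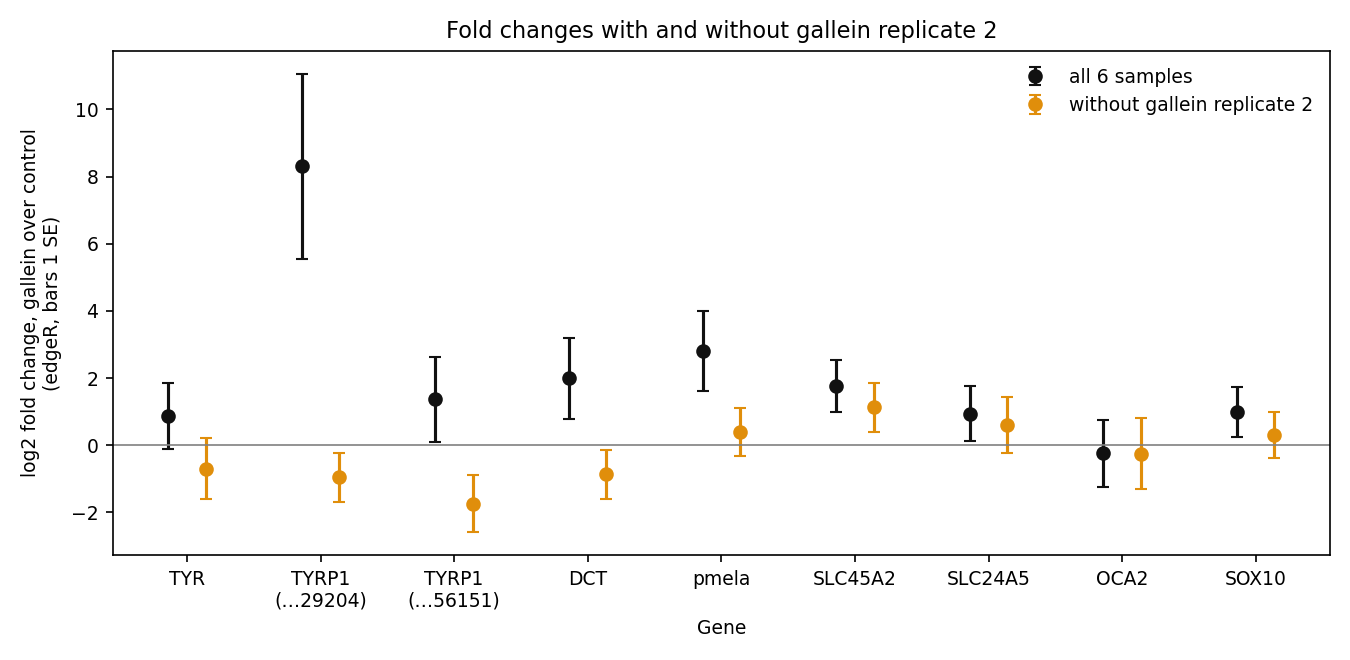
The edgeR log2 fold change of gallein over control for each tested melanin gene, with bars of 1 SE, from all 6 samples in black and without gallein replicate 2 in orange. TYR, both TYRP1 rows and DCT lie above 0 in black and below 0 in orange, while SLC45A2 is at 1.77 and 1.13.

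The step in gallein replicate 2 was larger for the enzymes and pmela than for the transporters and SOX10. Measured as log2(CPM + 1) in that sample minus the mean of gallein replicates 1 and 3, it was 10.7 and 4.54 for the TYRP1 rows, 4.26 for DCT, 3.80 for pmela and 2.54 for TYR. It was 1.57 for SLC45A2, 1.53 for SOX10, 0.78 for SLC24A5 and 0.037 for OCA2. The median over all genes tested was -0.20. TYRP1 (ENSDARG00000029204) ranked 2 of all 18271 genes by this difference, and 95.5% to 99.2% of genes lay below TYR, pmela, DCT and the other TYRP1 row. The share of genes below SLC45A2, SOX10, SLC24A5 and OCA2 was 87.8%, 87.3%, 75.2% and 57.3%.

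**Figure D4:**
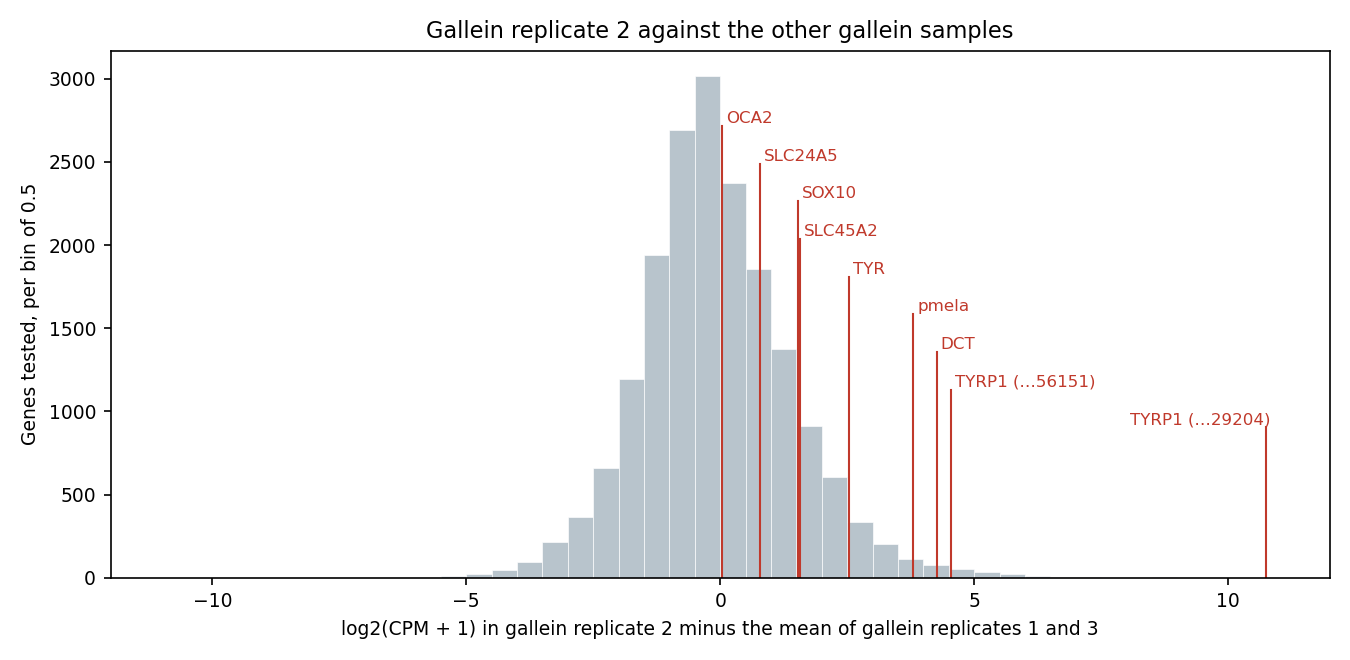
Distribution over all genes tested of log2(CPM + 1) in gallein replicate 2 minus the mean of gallein replicates 1 and 3, in bins of 0.5, with the 9 melanin gene rows as red lines (line heights are for legibility). The enzymes and pmela lie in the right tail between 2.54 and 10.7, and OCA2 lies near the centre at 0.037.

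Ratios of counts within a library do not depend on how libraries are scaled. Among the 36 pairs of tested members, 2 had gallein and control samples that did not overlap, and both involve pmela. For levels of single genes under TMM scaling, all gallein samples lay above all controls for 3.81% of all genes tested and below them for 5.22%. Beside those shares, 2 of 36 pairs is not read as a result about the members. There were 1.04, 1.08 and 0.586 DCT counts per pmela count in gallein, against 2.21, 1.74 and 1.78 in controls. There were 1.14, 1.51 and 0.718 counts of TYRP1 (ENSDARG00000056151) per pmela count in gallein, against 2.47, 2.43 and 8.89 in controls. So pmela was higher relative to these enzymes in each gallein sample, gallein replicate 2 included. Taken per DCT count, 0.416% of all genes tested had every gallein sample above every control. Per count of that TYRP1 row, 0.706% had. DCT and that TYRP1 row were themselves far higher in gallein replicate 2, which lowers such ratios there for most genes. The low shares therefore do not show that such a difference in ratios is rare. The ratios do not show which gene of a pair differed. Under TMM scaling pmela lay inside the control range in gallein replicates 1 and 3, while DCT and that TYRP1 row were below every control. These pairs were picked from the 36 after their values were seen, and no p is given for them.

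**Figure D5:**
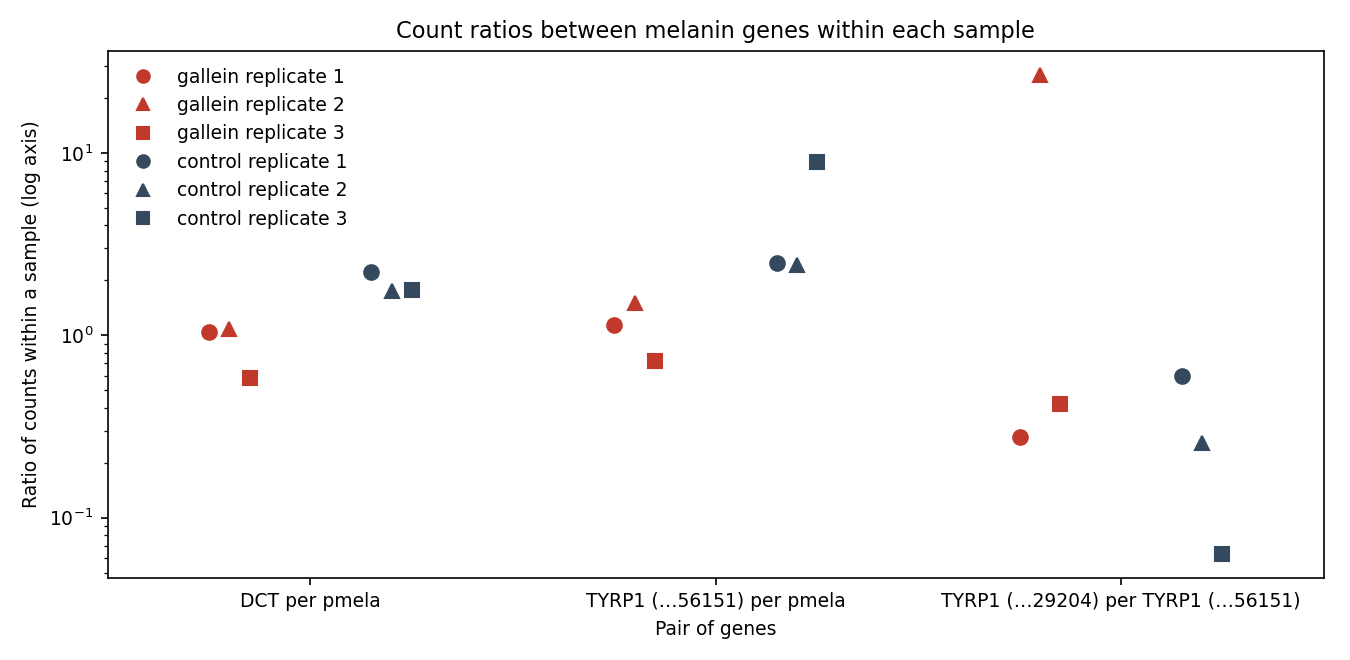
Ratios of counts between melanin genes within each sample, on a log axis, with gallein in red on the left and control in dark blue on the right. DCT per pmela runs from 0.586 to 1.08 in gallein and from 1.74 to 2.21 in controls, and TYRP1 (ENSDARG00000029204) per TYRP1 (ENSDARG00000056151) reaches 26.8 in gallein replicate 2.

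Members differed in how alike their profiles over the 6 samples were. As the root mean square difference of mean-centred log2(CPM + 1), the closest pair was SLC24A5 and OCA2 at 0.51, followed by SLC45A2 and SOX10 at 0.56 and DCT and pmela at 0.62. The most distant was TYRP1 (ENSDARG00000029204) and OCA2 at 3.83. Among 9522 other genes with a mean of at least 5 CPM, those nearest to the median profile of the members were RFC5 at 0.18, CLYBL at 0.23, SEL1L and ccdc71 at 0.26, EDF1 and ifngr1l at 0.30, and ARHGAP42 and HSD11B2 at 0.31. The median over those genes was 1.26. The members themselves were at 0.52 (TYR) to 2.98 (TYRP1, ENSDARG00000029204). RFC5, for example, was at 3.69, 24.7 and 6.19 CPM in gallein, against 3.25, 5.82 and 2.63 CPM in controls.

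Other genes of melanosome formation and transport were uneven. Of 30 rows matched to 40 listed names, 25 were tested, 15 with a log2 fold change above 0 and 10 below, with a median of 0.26, and edgeR called 0 higher and 0 lower. An unadjusted edgeR p under 0.05 was found for 4, where 6.5% of all genes tested had one. The gene pmelb (ENSDARG00000033760), the duplicate of pmela, was at 11.2, 183 and 15.8 CPM in gallein, against 5.64, 17.7 and 10.4 CPM in controls, the pattern of pmela. BLOC1S2 and BLOC1S6 encode subunits of a complex that sorts cargo to melanosomes. BLOC1S2 was at 1.90, 121 and 0.489 CPM in gallein, against 2.42, 0.616 and 0.461 CPM in controls. BLOC1S6 was at 30.9, 228 and 20.8 CPM in gallein, against 18.5, 13.3 and 18.5 CPM in controls. Both peaked in gallein replicate 2, where 8 of the 25 tested rows of this list were highest (22.3% of all genes tested were). Of the other tested BLOC1S rows, bloc1s4 was also highest there, at 4.96 CPM. BLOC1S1, at 0.626 CPM, and bloc1s3, with 0 counts, were lowest there. For BLOC1S6 every gallein sample was above every control under TMM scaling, but the groups overlapped when scaled by library size only or by spike-in RNA. Under TMM scaling 2 of the 25 tested rows had every gallein sample above every control, where 3.81% of all genes tested had that. RAB32 (ENSDARG00000029036), a small GTPase of melanosome trafficking, was at 0.913, 0.723 and 0.679 CPM in gallein, against 1.54, 4.16 and 5.28 CPM in controls. Its log2 fold change was -2.24 (edgeR adjusted p = 0.761), and every gallein sample was below every control under TMM and under spike-in scaling. Under TMM scaling 1 of the 25 tested rows had that, where 5.22% of all genes tested had it. The RAB32 levels rest on few counts, 24, 15 and 25 in gallein and 61, 243 and 229 in controls.

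Signals and factors of the melanophore lineage had 16 tested rows of 22, 13 of them above 0 and 3 below, with a median of 0.32, and edgeR called 0. TFAP2A, a neural crest and skin factor, was at 84.3, 211 and 227 CPM in gallein, against 88.1, 53.2 and 44.6 CPM in controls. The gene snai2, a neural crest factor, was at 44.7, 98.0 and 35.4 CPM in gallein, against 29.1, 17.4 and 30.1 CPM in controls, with every gallein sample above every control, though not when scaled by library size only or by spike-in RNA. Under TMM scaling snai2 was the 1 row of the 16 tested with that separation, where 3.81% of all genes tested had it. FOXD3, an early neural crest factor, had no count in any library. EDNRB (ENSDARG00000089334), an endothelin receptor of pigment cells, was at 2.40, 0.0963 and 30.5 CPM in gallein, against 2.54, 2.12 and 0.899 CPM in controls, so its high sample was gallein replicate 3. POMC, the precursor of melanocyte-stimulating hormone, was at 10.4 CPM in control replicate 3 and at most 0.626 CPM elsewhere.

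Under TMM scaling, markers of cell types that contain melanin or lie near such cells moved with the same libraries in part. The 13 rows of the retinal pigment epithelium list summed to 117, 549 and 60.6 CPM in gallein, against 239, 430 and 488 CPM in controls. Of the 12 tested, 5 were highest in gallein replicate 2 (22.3% of all genes tested were). Of the control sum in replicate 3, 377 CPM were RDH10 (ENSDARG00000058730), a retinol dehydrogenase gene at 13.6, 14.4 and 7.46 CPM in gallein, against 34.6, 16.2 and 377 CPM in controls. Without that row the list summed to 103, 534 and 53.2 CPM in gallein, against 205, 414 and 111 CPM in controls. The next 3 rows by unadjusted p were not highest in gallein replicate 2 either. The gene mertka, a receptor for the uptake of photoreceptor debris, was at 45.7, 1.11 and 16.7 CPM in gallein, against 6.47, 8.32 and 5.76 CPM in controls, lowest in gallein replicate 2. RGR, an opsin gene, and rlbp1b, which encodes a retinal-binding protein, were highest in control replicate 2, at 39.4 and 28.2 CPM, and at 12.8 and 14.6 CPM in gallein replicate 2. The isomerase of the visual cycle in that tissue, RPE65 (ENSDARG00000007480), was at 19.8, 419 and 15.6 CPM in gallein, against 146, 263 and 39.4 CPM in controls. Under TMM scaling RPE65 was highest in gallein replicate 2, and gallein replicates 1 and 3 were below all controls, as for DCT and TYRP1 (ENSDARG00000056151). Which of gallein replicate 2 and control replicate 2 was higher for RPE65 depends on the scaling. The gene rdh5, a retinol dehydrogenase of that tissue, was at 0.685, 17.6 and 1.03 CPM in gallein, against 2.62, 16.8 and 0.945 CPM in controls. RPE65 and rdh5 were chosen after their values were seen, so they do not stand for the list. Over the 12 tested rows the median log2 fold change was -0.033, and 0 were called. Photoreceptor rows summed to 22072, 4937 and 537 CPM in gallein, against 2055, 14215 and 3073 CPM in controls. The cone opsin gene opn1sw2 held 20480 CPM of the sum in gallein replicate 1. Without it the rows summed to 1592, 4589 and 501 CPM in gallein, against 707, 13326 and 2803 CPM in controls, so gallein replicate 2 was the highest gallein sample and control replicate 2 the highest of all. Lens rows summed to 4039, 2077 and 1556 CPM in gallein, against 2341, 820 and 1020 CPM in controls.

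Genes listed for the other pigment cells of the zebrafish also had counts, which does not show that those cells were present. The 8 xanthophore rows, genes of yellow pigment cells, summed to 8.67, 43.8 and 11.7 CPM in gallein, against 18.5, 18.3 and 11.0 CPM in controls. The 12 iridophore rows, genes of reflective cells, summed to 251, 364 and 265 CPM in gallein, against 252, 213 and 199 CPM in controls. Of these, the iridophore gene pnp4a was at 4.79, 8.96 and 2.47 CPM in gallein, against 6.62, 0.787 and 0.369 CPM in controls. GPNMB, a melanosomal glycoprotein gene related to pmela, was at 23.0, 17.1 and 28.9 CPM in gallein, against 15.7, 9.36 and 5.60 CPM in controls. Every gallein sample was above every control for GPNMB under TMM scaling, but not with upper-quartile, library size or spike-in scaling. Under TMM scaling 2 of the 11 tested iridophore rows had that separation, where 3.81% of all genes tested had it. GPNMB had a log2 fold change of 1.17 (edgeR adjusted p = 0.787), and gallein replicate 2 was the lowest of the 3. Glial rows, listed because SOX10 is also a glial gene, summed to 130, 382 and 123 CPM in gallein, against 273, 136 and 131 CPM in controls. Of the gallein sum in replicate 2, 316 CPM were FABP7 (ENSDARG00000007697), while the myelin gene mbpa was at 1.69 CPM there. The 7 rows of mature ciliated olfactory neurons summed to 37.3, 17.0 and 46.9 CPM in gallein, against 136, 66.7 and 69.5 CPM in controls. These sums were lowest in gallein replicate 2, where most melanin rows were highest under the same TMM scaling. With spike-in scaling most melanin rows were highest in control replicate 2 instead. By edgeR, 0 genes of these lists were called, and the part of other cell types in the melanin gene levels was not tested.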

How the data were processed

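For each sample the authors deposited 2 files of raw counts of reads per gene, made with TopHat2 2.0.4 and HTSeq on build Zv9, per the submitters' processing notes. RNA was poly(A)-selected and amplified by SPIA, per the labels' protocols. Strand setting, counting mode and annotation release were not found there, and reads of overlapping genes cannot be told apart. The 2 files of a sample were summed and counted as 1 replicate. The labels call the samples biological replicates and name no clutch or day. The p-values set the difference between the groups against the spread between these samples, whatever its source. Rows that name no gene (19.4% to 33.9% of a sample's total) and the 92 rows of spike-in RNA were left out of totals and tests.

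The test was that of edgeR 4.0.16 under R 4.3.3 (TMM, filterByExpr with a minimum count of 10, robust quasi-likelihood fit, group as the only term, two-sided, Benjamini-Hochberg over 18271 genes). The SE is the log2 fold change divided by the square root of F. The steps were also run on simulated counts, in which no single library was made to stand apart, and no result here rests on that run. Symbols came from a table naming 20734 of 32469 identifiers. Matching ignored case and let a capital symbol lack the last a or b.

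Members and lists were chosen with earlier results of these data known. The naming rule took every member, up to 4 genes of each list with the smallest p (the text gives a selection), OMP, and the 8 genes with at least 5 CPM nearest to the members' median profile. RPE65, rdh5, FOXD3, pnp4a, mbpa, FABP7, BLOC1S1, bloc1s3, bloc1s4, mlphb and MLPH were named after their values were seen. Alternatives were other scalings and filters, DESeq2 1.42.0, limma-voom (limma 3.58.1), single files, a replicate block and each replicate left out. Intervals and floors cover counting error only.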

Additional observations from a re-analysis of the deposited data

How the results depend on the processing

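Across 18 alternatives to the edgeR fit, 0 melanin genes were called higher and 0 lower. Among the 9 rows of the main test the lowest adjusted p was 0.266 where one was given. It was that of TYRP1 (ENSDARG00000029204) in edgeR with spike-in size factors. DESeq2 gave no p for that row (log2 fold change 8.44 ± 1.55, SE), DCT and pmela, so these were not tested there. Over all genes the DESeq2 Wald test called 54 higher and 39 lower, and the other alternatives 0. Of 162 alternative log2 fold changes of the 9 rows of the main test, 148 kept their sign and 14 changed it. With spike-in size factors, under which 2 members were highest in gallein replicate 2, the values were -0.13 for SLC45A2, -0.72 for DCT, -1.29 for SLC24A5, -1.52 for TYR, -1.18 for TYRP1 (ENSDARG00000056151) and -0.74 for SOX10, and pmela was at 0.14. The median of all genes was then -1.67. In limma-voom OCA2 was at 0.23, TYRP1 (ENSDARG00000029204) at 2.84, TYRP1 (ENSDARG00000056151) at 0.023 and DCT at 0.71. With 1 replicate left out at a time the range was -0.96 to 8.89 for TYRP1 (ENSDARG00000029204), -1.74 to 1.89 for TYRP1 (ENSDARG00000056151), -0.86 to 2.51 for DCT, -0.70 to 1.31 for TYR and -0.70 to 1.04 for OCA2. The negative values of the first 4 rows came without gallein replicate 2, and the positive one of OCA2 without control replicate 2. The cause of these changes was not tested beyond the library left out.

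Nothing in the labels pairs samples of equal number, and the correlation of deviations from the group means was 0.067, -0.115 and 0.18 for numbers 1 to 3, with 3 of 6 samples closest to their own number. With the replicate number as a block 0 genes were called, TYRP1 (ENSDARG00000029204) was at 1.14, TYRP1 (ENSDARG00000056151) at -0.090 and OCA2 at 0.34. The MITF rows had at most 14 counts in a library and were tested only in the fit without a filter, where 0 of 11 member rows were called. The checks of listed genes under other scalings, and of list sums without their largest row, were chosen after seeing the data.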

Other observations

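A gene that stands at least 100-fold above the next highest library, on CPM + 1, was not particular to TYRP1. Among 18271 genes tested, 28 did so, 11 of them in gallein replicate 1, 9 in gallein replicate 2, 5 in gallein replicate 3, and 2, 1 and 0 in control replicates 1 to 3. TYRP1 (ENSDARG00000029204) was rank 3 of all genes by this measure, at 682-fold.

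The counts of TYRP1 (ENSDARG00000029204) were split unevenly over the 2 files of a sample. In gallein replicate 2 the first file held 240191 and the second 183656, so the first held 56.7% (95% Wilson interval 56.5% to 56.8%, counting error only), while it held 52.2% of all gene counts. The share of the first file was 60.6% and 56.9% in gallein replicates 1 and 3, and 59.1%, 59.0% and 55.3% in the controls, above the library's own share in every sample. The interval included the library's share in gallein replicate 3 (52.4% to 61.3%, library 52.8%) and in control replicate 3 (50.7% to 59.8%, library 52.0%). Among 3491 genes with at least 500 counts in gallein replicate 2, 45 had a higher share in the first file. Genes with fewer counts vary more in this share by counting error, and the comparison was not matched on count. The log2 fold change from either file alone kept its sign for all 9 tested members.

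Among transport genes, mlphb, a melanophilin duplicate that links melanosomes to motor proteins, was at 1.598, 1.25 and 1.30 CPM in gallein, against 0.151, 0.342 and 0.184 CPM in controls. It was 1 of 2 among the 25 tested rows of its list with every gallein sample above every control, where 3.81% of all genes tested had that, and its log2 fold change was 2.59 (edgeR adjusted p = 0.767). The levels rest on few counts, 42, 26 and 48 in gallein and 6, 20 and 8 in controls, and the groups overlapped under spike-in scaling. The other melanophilin row, MLPH (ENSDARG00000070991), was at 0.304, 8.62 and 0.353 CPM in gallein, against 0.806, 0.377 and 0 CPM in controls. Its groups overlapped, and its high sample was gallein replicate 2.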
